A study of Mus musculus with 2 samples.

Results

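The Toll-like receptors and Cd14 were examined as 10 genes, Tlr1 to Tlr9 and Cd14, picked by gene symbol from a table of 37309 genes. All 10 symbols were found once in the table. The RNA came from intestinal subepithelial myofibroblasts (ISEMFs), the contractile stromal cells that lie under the crypt epithelium, grown in culture from the small intestine of wild-type C57BL/6 mice. Supportive ISEMFs were from neonatal mice and were named for their support of enteroid growth in co-culture. Non-supportive ISEMFs were from adult mice, isolated in the same way, and supported enteroids only weakly when no R-spondin was added. There was 1 library of each population, so no difference below has a replicate check, and the age of the mice and the isolation cannot be told apart from the population. How often either culture had been passaged is not stated in the sources used here. Deposited names carry a P and a number for each library, higher for supportive ISEMFs, which no source explains. A difference in passage number cannot be told apart from the population either. No sort for ISEMFs before RNA extraction is described in the study's methods for these cultures.

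Toll-like receptors are membrane proteins with a leucine-rich ectodomain that binds microbial products or products of damaged cells, and a cytoplasmic TIR domain that recruits adaptors such as Myd88. At the cell surface, Tlr2 pairs with Tlr1 or Tlr6 to bind bacterial lipopeptides, Tlr4 binds lipopolysaccharide with Ly96 (MD-2) and the help of Cd14, and Tlr5 binds flagellin. Tlr3, Tlr7, Tlr8 and Tlr9 signal from endosomes and are known for sensing nucleic acids. In the gut these receptors are known from epithelium, from stromal cells and above all from macrophages and dendritic cells of the lamina propria.

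Because the library counts kept only reads assigned to a single gene, the sequences of Tlr1 and Tlr6 bear on what could be counted. The genes are neighbours on the minus strand of chromosome 5 (mm9), Tlr1 at chr5:65316050-65324000 and Tlr6 at chr5:65344345-65351287, with 20344 bases between them. Each has its whole coding sequence in 1 exon block of 2488 bases, and a global alignment of the blocks gave 76.0% identity over 2446 aligned bases. Identity was uneven. A stretch of 279 bases, inside the coding sequence of both genes and containing their longest identical run of 229 bases, is shown first, with the 2 bases that differ in capitals, for chr5:65316751-65317029 and chr5:65345042-65345320.
Tlr1: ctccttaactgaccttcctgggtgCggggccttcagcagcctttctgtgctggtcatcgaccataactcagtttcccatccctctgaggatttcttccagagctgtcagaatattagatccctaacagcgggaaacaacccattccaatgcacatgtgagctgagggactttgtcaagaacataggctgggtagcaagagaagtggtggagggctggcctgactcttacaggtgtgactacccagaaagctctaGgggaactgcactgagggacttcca
Tlr6: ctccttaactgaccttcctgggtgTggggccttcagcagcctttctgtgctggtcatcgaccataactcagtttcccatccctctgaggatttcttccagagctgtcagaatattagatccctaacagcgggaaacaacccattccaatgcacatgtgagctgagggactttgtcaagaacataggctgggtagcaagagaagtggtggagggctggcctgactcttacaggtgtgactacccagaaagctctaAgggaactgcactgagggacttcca
The least alike window of 100 coding bases is shown next for contrast, for chr5:65317451-65317550 and chr5:65345742-65345841, with the 50 differing bases in capitals.
Tlr1: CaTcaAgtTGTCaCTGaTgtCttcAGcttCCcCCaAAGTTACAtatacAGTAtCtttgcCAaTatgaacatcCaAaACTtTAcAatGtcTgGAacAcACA
Tlr6: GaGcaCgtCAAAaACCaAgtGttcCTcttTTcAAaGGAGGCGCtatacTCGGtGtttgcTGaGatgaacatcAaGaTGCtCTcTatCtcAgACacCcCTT
Reads from the first stretch are the same for both genes unless they cover a capital letter, while every read from the second window tells the genes apart.

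Over the exons of Tlr1, 2051 of 2505 windows of 50 bases (81.9%) occurred once in the mm9 genome, and the same numbers held for Tlr6. The remaining 454 windows were shared by the pair, in 6 stretches of the coding block that together held 748 bases. Reads from the shared windows are lost from both genes in either library, so levels of Tlr1 and Tlr6 are understated while their ratio between libraries is not touched by it. These were exact matches, and since the aligner allowed mismatches more reads than this may have been lost. In Tlr4 99.4% of windows occurred once, and in the other 7 genes all did. None of the 10 genes overlapped another annotated gene.

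**Figure D1:**
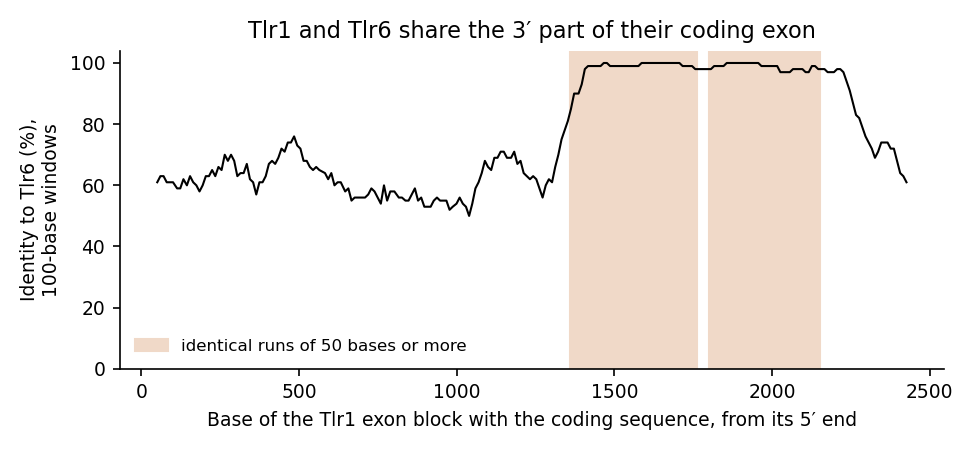
Identity of Tlr1 to Tlr6 in percent, in windows of 100 aligned bases, along the Tlr1 exon block that holds the coding sequence (x axis, bases from its 5′ end). Shaded parts are identical runs of at least 50 bases; they lie between base 1360 and base 2151, and identity falls to 50% outside them.

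Reads were compared per library size, and a gene was counted as higher or lower where the whole exact 95% interval of the ratio lay beyond 2-fold. All 10 genes had at least 10 reads over both libraries, the least being 11 for Tlr9, but Tlr7, Tlr8 and Tlr9 reached that only through the non-supportive library. By this rule 1 gene, Tlr1, was higher in supportive ISEMFs, where 7.98% of the 16438 genes compared were higher. Lower in the supportive library were 3 genes, Tlr7, Tlr8 and Cd14, beside 9.62% of all genes compared. The same 4 genes were past 4-fold, where the shares of all genes were 3.22% higher and 4.54% lower. With 10 genes, these counts are a description of the genes and not a comparison of the group with other genes.

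Summed over the 10 genes, the libraries held almost equal numbers of reads, 3662 in supportive and 3611 in non-supportive ISEMFs. Tlr4 took 57.2% of them in supportive and 67.2% in non-supportive ISEMFs. The equal sums hold differences of opposite sign, the largest in reads being Tlr3, with more in supportive ISEMFs, and Tlr4, with fewer. Intervals given here cover counting error only and compare the libraries, not the populations. In RNA of whole cultures, fewer cells of a type and less RNA per cell cannot be told apart.

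**Figure D2:**
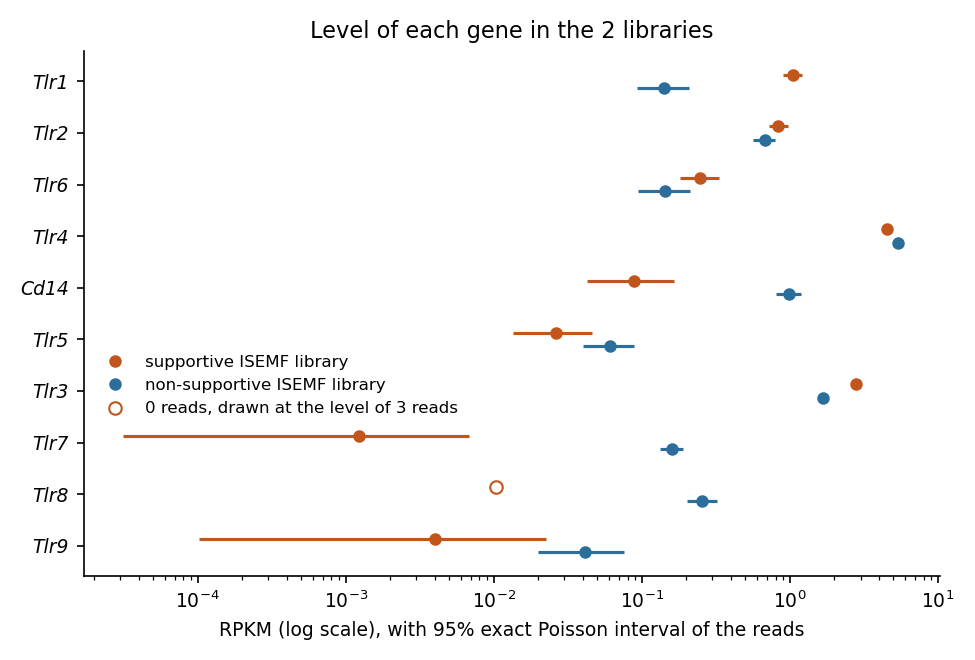
Level of each of the 10 genes as RPKM (x axis, log scale) in the supportive and the non-supportive ISEMF library, with the exact 95% Poisson interval of its reads; the open circle marks Tlr8, with 0 reads in the supportive library, at the level of 3 reads. Tlr4 and Tlr3 are the highest in both libraries, and the points of Tlr1, Tlr7, Tlr9 and Cd14 lie from 7.40 to 130 times apart, those of Tlr7 and Tlr9 with wide intervals.

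Tlr2, the partner shared by both lipopeptide receptors, had 180 reads in supportive and 141 in non-supportive ISEMFs. Its level was 0.836 RPKM (reads scaled by exon length and by library size; 95% interval 0.718 to 0.967) against 0.674 (0.567 to 0.795). The ratio of 1.24 had an interval of 0.990 to 1.56, so a difference was not detectable at this depth and one past 2-fold lay outside the interval. Tlr1, which with Tlr2 binds triacylated lipopeptides, had 198 reads in the supportive library and 26 in the other. That is 1.04 RPKM (0.904 to 1.20) against 0.141 (0.0922 to 0.207), a ratio of 7.40 with an interval of 4.90 to 11.6. The Tlr1 intervals of the libraries are far apart.

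Tlr6, which with Tlr2 binds diacylated lipopeptides, had 46 reads in supportive and 26 in non-supportive ISEMFs. Its level was 0.247 RPKM (0.181 to 0.330) against 0.144 (0.0940 to 0.211), and the ratio of 1.72 had an interval of 1.04 to 2.90 that spans 2-fold. The library ratio of Tlr1 was 4.28 times that of Tlr6 (exact conditional 95% interval 2.17 to 8.47) and 5.95 times that of Tlr2 (3.69 to 9.88). Tlr1 thus differed between the libraries by more than its close relative and by more than its partner, beyond counting error.

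The balance of the lipopeptide receptors within each library followed from this. In the supportive library the level of Tlr1 per length was 4.22 times that of Tlr6 (3.05 to 5.96), and in the non-supportive library the ratio was 0.982 (0.548 to 1.76). Tlr2 stood at 0.800 times the level of Tlr1 in the supportive library (0.650 to 0.984) and at 4.77 times in the non-supportive library (3.13 to 7.56). Against Tlr6, Tlr2 was 3.38 times as high in the supportive library (2.43 to 4.78) and 4.69 times in the non-supportive library (3.07 to 7.42). Of these 3 pairs, the ratios that involve Tlr1 have intervals that do not overlap between libraries.

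**Figure D3:**
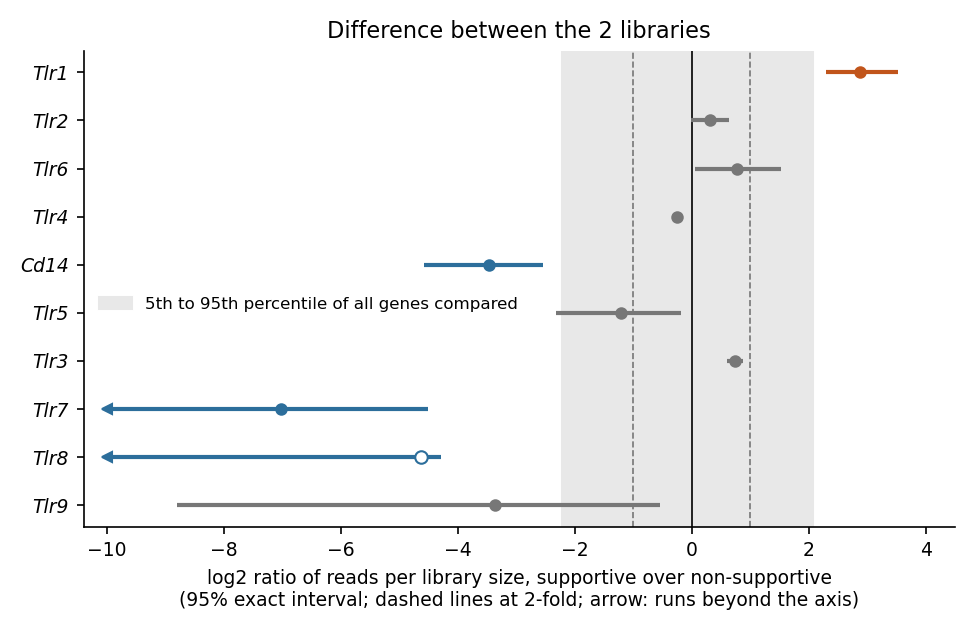
Log2 ratio of reads per library size, supportive over non-supportive, for each of the 10 genes with its exact 95% interval; grey band, 5th to 95th percentile of the genes compared that had reads in both libraries; dashed lines, 2-fold. The whole interval of Tlr1 lies above 2-fold and those of Cd14, Tlr7 and Tlr8 below it, Tlr8 drawn as an open circle at the 3-read floor, while the points of Tlr5 and Tlr9 lie below 2-fold with intervals that cross it.

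Tlr4, the lipopolysaccharide receptor, at chr4:66488618-66591318 on the plus strand, was the highest of the 10 genes per length in both libraries. It had 2096 reads in supportive and 2425 in non-supportive ISEMFs, at 4.55 RPKM (4.35 to 4.75) and 5.41 RPKM (5.20 to 5.63). The ratio of 0.840 (0.792 to 0.891) is below 1 beyond counting error, but by less than 2-fold. In the supportive library 70.4% of protein-coding genes with a read had a lower RPKM than Tlr4, and 74.7% did in the non-supportive library.

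Cd14, the surface protein that hands lipopolysaccharide to Tlr4 and Ly96, has 2 exon blocks on the minus strand of chromosome 18, between bases 36884728 and 36886390. It had 10 reads in supportive and 108 in non-supportive ISEMFs. Its level was 0.0890 RPKM (0.0427 to 0.164) against 0.989 RPKM (0.811 to 1.19), which is 11.1 times as high in the non-supportive library (5.82 to 23.8). The libraries differed in Cd14 by 9.33 times as much as in Tlr4 (4.87 to 20.1). Per length, Tlr4 exceeded Cd14 51.1 times in the supportive library (27.7 to 107) and 5.47 times in the non-supportive library (4.51 to 6.70).

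Ly96, without which Tlr4 does not bind lipopolysaccharide, had 463 and 469 reads, at 10.7 RPKM in supportive and 11.2 RPKM in non-supportive ISEMFs. Its ratio of 0.959 had an interval of 0.842 to 1.09. Ly96 was 2.36 times as high as Tlr4 per length in the supportive library (2.13 to 2.61) and 2.07 times in the non-supportive library (1.87 to 2.28). The receptor and its binding partner thus differed between the libraries by less than 2-fold, and Cd14 by more. Lbp, the serum protein that carries lipopolysaccharide to Cd14, had 17 and 15 reads.

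Tlr5, the flagellin receptor, at chr1:184884919-184906175 on the plus strand, was near the limit of detection. It had 12 reads in supportive and 27 in non-supportive ISEMFs, at 0.0263 RPKM (0.0136 to 0.0459) and 0.0608 RPKM (0.0401 to 0.0884). The ratio of 0.432 had an interval of 0.199 to 0.882, which excludes equal levels and spans 2-fold.

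Among the endosomal receptors, Tlr3, which binds double-stranded RNA and signals through Ticam1, was the only gene well covered in both libraries. It lies at chr8:46481019-46495962 on the minus strand. It had 1118 reads in supportive and 650 in non-supportive ISEMFs, at 2.78 RPKM (2.62 to 2.95) and 1.66 RPKM (1.54 to 1.80). The ratio of 1.67 (1.52 to 1.84) was above 1 beyond counting error and below 2-fold throughout its interval. Relative to Tlr4, the supportive library held 1.99 times as many Tlr3 reads as the non-supportive one (1.77 to 2.23), and the level of Tlr4 over Tlr3 was 1.64 in supportive and 3.25 in non-supportive ISEMFs.

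The other 3 endosomal receptors were read almost only in the non-supportive library. Tlr7, which binds single-stranded RNA, had 1 read in supportive and 126 in non-supportive ISEMFs, at 0.00123 RPKM and 0.159 RPKM (0.132 to 0.189). The ratio of non-supportive to supportive was 130, with a counting interval of 22.9 to 5161 that is wide because of the single read. Tlr8, a close relative of Tlr7, had 0 reads and 72 reads. Its level in the non-supportive library was 0.256 RPKM (0.201 to 0.323). With the count of 0 set at a floor of 3 reads, or 0.0104 RPKM, Tlr8 came out 24.7-fold lower in the supportive library. The exact 95% interval, which also takes in the error of the 72 reads, begins at 19.6-fold. Tlr7 and Tlr8 are neighbours on the minus strand of chromosome X, at chrX:163742861-163768490 and chrX:163680626-163702261, with 40599 bases between them.

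Tlr9, the receptor for unmethylated CpG DNA, at chr9:106124929-106129207 on the plus strand, had 1 read in supportive and 10 in non-supportive ISEMFs, at 0.00403 RPKM and 0.0415 RPKM. Its ratio of non-supportive to supportive was 10.3, with an interval of 1.46 to 447, so it was not past 2-fold by the rule. Of the 3 other mouse Toll-like receptors, Tlr11 and Tlr12 had 0 reads in both libraries, and Tlr13, an endosomal receptor for bacterial ribosomal RNA, had 1 read in supportive and 445 in non-supportive ISEMFs. At 1.57 RPKM, Tlr13 was higher per length in the non-supportive library than Tlr7, Tlr8 or Tlr9.

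The genes were ordered by level per length in each library. In the supportive library the order was Tlr4, Tlr3, Tlr1, Tlr2, Tlr6, Cd14, Tlr5, Tlr9, Tlr7 and Tlr8, and the neighbours from Tlr5 downwards did not differ beyond counting error. In the non-supportive library it was Tlr4, Tlr3, Cd14, Tlr2, Tlr8, Tlr7, Tlr6, Tlr1, Tlr5 and Tlr9. There, Tlr7 and Tlr6, Tlr6 and Tlr1, and Tlr5 and Tlr9 did not differ beyond counting error. Tlr1 moved from the third place to the eighth, and Cd14 from the sixth to the third. Parts of this order depend on the gene lengths, since the table gives Tlr7 11416 bases of exon and GENCODE vM1 gives 4082. With the lengths of that annotation, Tlr7 (0.444 RPKM) was above Tlr8 (0.289 RPKM) and 3.09 times as high as Tlr6 (2.01 to 4.91), and Tlr5 was above Tlr9 in both libraries beyond counting error. Cd14 and Tlr5 in the supportive library, and Tlr1 and Tlr5 in the non-supportive library, then did not differ beyond it.

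On the deposited scale, 3 genes reached an RPKM of 1 in the supportive library, Tlr4, Tlr3 and Tlr1, and 2 did in the non-supportive library, Tlr4 and Tlr3. A rule that asks for that level in at least 1 library and a 2-fold difference of RPKM + 0.1 kept Tlr1 as higher and none as lower, beside 9.01% of 10086 genes higher and 9.27% lower. The log2 ratio of RPKM + 0.1 was 2.25 for Tlr1, 0.71 for Tlr3, 0.51 for Tlr6, 0.27 for Tlr2 and -0.25 for Tlr4. It was -0.35 for Tlr5, -0.44 for Tlr9, -1.35 for Tlr7, -1.83 for Tlr8 and -2.53 for Cd14, a scale on which low genes are drawn towards 0. The median over all genes compared was -0.05.

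Markers of macrophages, a cell type known for Cd14 and many of these receptors, differed between the libraries in the same direction as Cd14, Tlr7, Tlr8 and Tlr13. Ratios of supportive to non-supportive went the other way for Tlr1 (7.40), Tlr6 (1.72), Tlr3 (1.67) and Tlr2 (1.24, with an interval that spans 1). Those of Tlr4, Tlr5 and Tlr9 were 0.840, 0.432 and 0.0972. Past 2-fold, 17 of 18 markers were lower in supportive ISEMFs and 0 were higher, beside 9.62% lower and 7.98% higher among all genes compared. Of the 17, 13 reached 10 reads only through the non-supportive library. The other marker, Cd53, had a ratio of 0.464 with an interval of 0.417 to 0.516 that spans 2-fold. The markers Ptprc, Adgre1, Itgam, Tyrobp, Aif1, Fcgr1, C1qa, C1qb, C1qc and Spi1 had 0 reads in the supportive library. Each of the 18 had between 19 and 6629 reads in the non-supportive library. Their summed level was 9.50 RPKM in supportive and 139 RPKM in non-supportive ISEMFs, or 3.19 and 66.2 RPKM without Lyz2. Cd14 had 10 reads in the library where 10 of the 18 markers had none, while Lyz2 and Cd53 had 592 and 522 reads there. The part of macrophage RNA in the levels of Cd14, Tlr7, Tlr8, Tlr9 and Tlr13 was not tested.

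Tlr1 was higher in the library in which 17 of the macrophage markers were lower past 2-fold, and the part of other cell types in the levels of Tlr1 to Tlr6 was not tested. Among 5 dendritic cell markers, Flt3 and Siglech had 0 reads in both libraries, Itgax had 0 and 7, Xcr1 had 10 in each, and Zbtb46 was higher in the supportive library, with 1490 reads against 370. Of the 7 lymphocyte markers, none had more than 22 reads in a library. Among 5 endothelial markers, Kdr was lower in supportive ISEMFs (2 against 88 reads) and Tek higher (65 against 2). Among 6 epithelial markers, Krt20 (11 against 419 reads) and Krt18 (0 against 19) were lower and Cdh1 was higher (159 against 18). All 7 myofibroblast markers were read in both libraries, with Acta2 at 908 RPKM in supportive and 1410 RPKM in non-supportive ISEMFs and Vim at 325 and 407 RPKM. Past 2-fold, Pdgfrb was higher in supportive ISEMFs (28.1 against 7.67 RPKM), and Pdgfra (3.37 against 12.1 RPKM) and Des (0.575 against 3.40 RPKM) were lower.

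**Figure D4:**
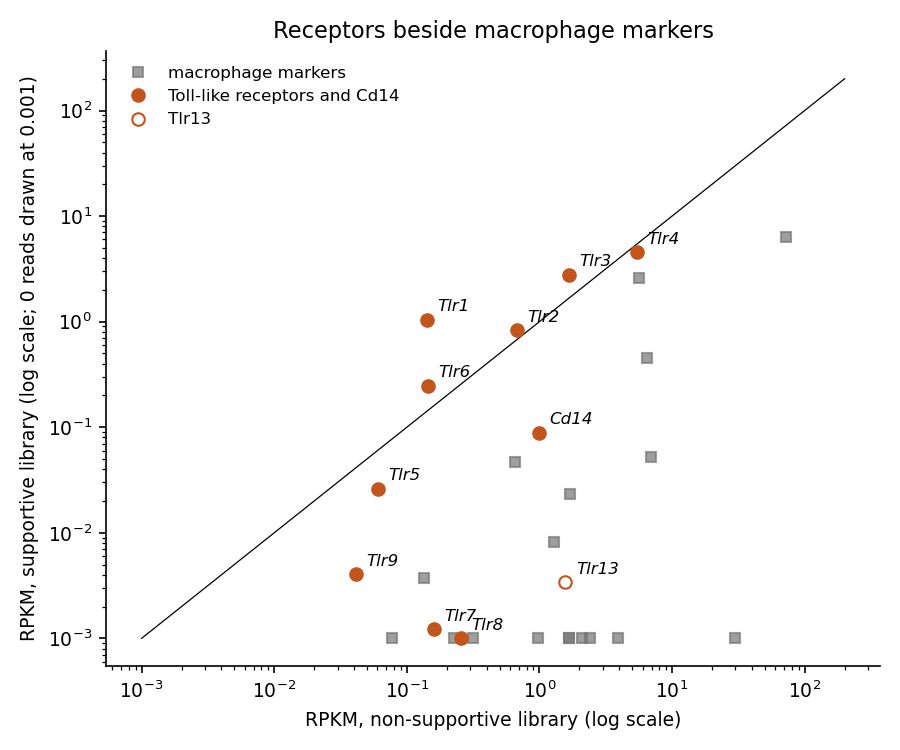
RPKM in the supportive library (y axis) against RPKM in the non-supportive library (x axis), both on log scales, for the 10 genes, Tlr13 and 18 macrophage markers; genes with 0 reads in the supportive library are drawn at 0.001 and the line marks equal levels. Cd14, Tlr7, Tlr8 and Tlr13 lie below the line with the markers, while Tlr1 lies above it.

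The genes that act with the receptors were taken from 6 lists, 74 genes with the 3 other Toll-like receptors, of which 64 had at least 10 reads. Past 2-fold, 5 were higher in supportive ISEMFs and 17 lower, beside 7.98% higher and 9.62% lower among all genes compared, and their median log2 ratio of RPKM + 0.1 was -0.16. Of the 17, 11 came from the list of inducible targets. Among the 9 accessory proteins, none was higher, and Cd36, a co-receptor of Tlr2 and Tlr6, and Ly86, the partner of Cd180, were lower. Cd36 was at 1.14 RPKM in supportive and 9.74 RPKM in non-supportive ISEMFs. Unc93b1, which brings the endosomal receptors to their compartment, was at 1.11 and 0.518 RPKM, a ratio of 2.13 whose interval of 1.74 to 2.63 spans 2-fold. Hsp90b1, the chaperone that folds most Toll-like receptors, was at 497 and 561 RPKM.

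None of the 19 adaptors, kinases and ubiquitin ligases was past 2-fold in either direction, and their median log2 ratio was -0.06. Myd88, the adaptor of every member receptor but Tlr3, was at 1.51 and 0.657 RPKM, with a ratio of 2.30 (1.97 to 2.69) that spans 2-fold at its lower end. With TMM or size factors, and on the rule that asks for an RPKM of 1, Myd88 was past 2-fold and 1 of the 19 was higher. Ticam1, the adaptor of Tlr3, was at 3.01 RPKM in supportive and 1.82 RPKM in non-supportive ISEMFs, a ratio of 1.65 (1.45 to 1.88) next to the 1.67 of Tlr3. Myd88 and Ticam1 were thus read in both libraries, including the one in which Tlr7 and Tlr8 had at most 1 read. Of the other adaptors, Tirap had 243 reads in supportive and 276 in non-supportive ISEMFs, and Ticam2 had 6 and 14. Of the 5 transcription factors, Irf7 was past 2-fold, with 116 reads in supportive and 28 in non-supportive ISEMFs.

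Of 9 negative regulators, Atf3 and Trafd1 were higher and Tnfaip3, the A20 deubiquitinase, was lower, at 1.23 RPKM in the supportive against 3.84 RPKM. With a 99% interval only 1 of the 9 was higher, and at 4-fold 0 were higher and 0 lower. Of 6 endogenous ligands of Tlr2 or Tlr4, Vcan and Dcn were higher and Tnc and Hspd1 lower. With TMM or size factors Hspd1 was no longer past 2-fold and Bgn also was higher, and with a 99% interval Hspd1 was not past 2-fold. Only 49.1% of the Hspd1 windows of 50 bases occurred once in the genome, so its level may be understated. Of 15 inducible targets, genes known to be switched on downstream of these receptors and also by other signals, 0 were higher and 11 lower, beside 9.62% of all genes lower, with a median log2 ratio of -1.29. Of the 11, 8 reached 10 reads only through the non-supportive library, which tilts them towards being called lower. At 4-fold or with a minimum of 50 reads, 6 of the 11 were left. On the RPKM rule 6 targets were lower, but these included Il6 and Nfkbia, which are not among the 11. Among the 11, Ptgs2 was at 11.7 RPKM in supportive and 429 RPKM in non-supportive ISEMFs, Ccl2 at 1.96 and 21.2 RPKM, and Cxcl1 at 2.89 and 8.54 RPKM. Saa3 had 0 and 2649 reads. No receptor stimulus was part of this comparison, and macrophage marker levels moved with the lower targets as given above; their part was not tested.

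**Figure D5:**
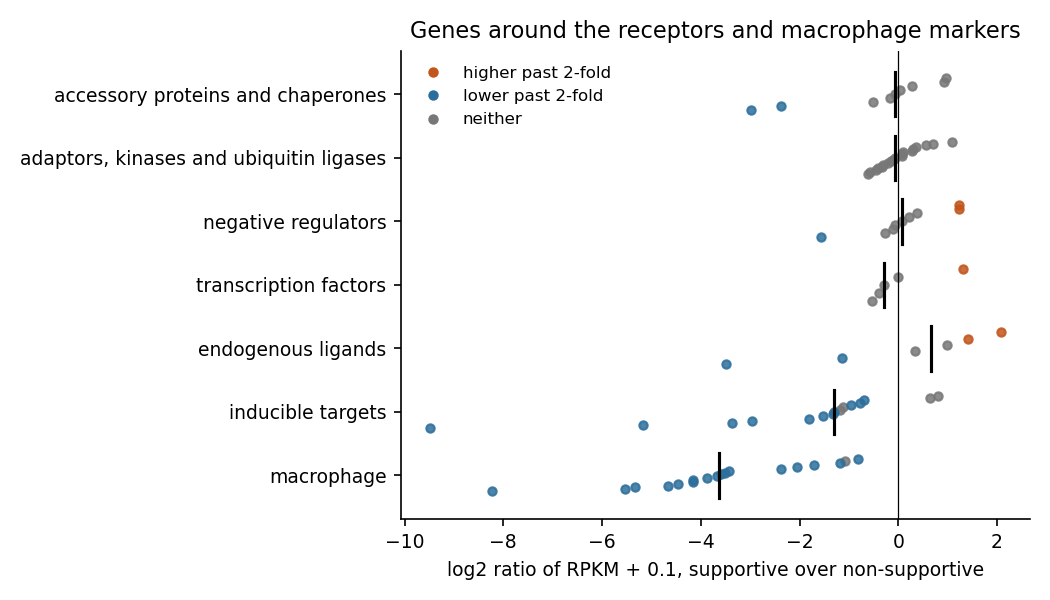
Log2 ratio of RPKM + 0.1, supportive over non-supportive (x axis), for the genes of the 6 lists and for the macrophage markers with at least 10 reads; black bars are list medians. The adaptors centre at -0.06, with Myd88 furthest to the right at 1.09 and coloured as neither because the interval of its reads spans 2-fold, the inducible targets at -1.29 and the macrophage markers at -3.63.

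Sequence just before the start site, taken from RefSeq (GRCm38.p6), was searched for 7 of the 10 genes. Tlr4, Tlr7 and Cd14 were not among them, which does not show that RefSeq lacks such sequence for them. The 7 genes had 9 windows of 250 bases that were each found unchanged in mm9. Those of Tlr1 and Tlr8 are shown, since these genes lie past 2-fold in opposite directions and the windows contain no annotated exon. Tlr1 is given for chr5:65324798-65325047 and Tlr8 for chrX:163702262-163702511, on the minus strand, with capitals for GAGGAA on either strand, the core letters bound by PU.1 (Spi1), a factor of myeloid cells.
Tlr1: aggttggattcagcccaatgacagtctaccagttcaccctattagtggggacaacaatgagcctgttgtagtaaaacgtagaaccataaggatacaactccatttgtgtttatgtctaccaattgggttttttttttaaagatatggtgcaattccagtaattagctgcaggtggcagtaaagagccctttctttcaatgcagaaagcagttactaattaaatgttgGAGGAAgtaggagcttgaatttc
Tlr8: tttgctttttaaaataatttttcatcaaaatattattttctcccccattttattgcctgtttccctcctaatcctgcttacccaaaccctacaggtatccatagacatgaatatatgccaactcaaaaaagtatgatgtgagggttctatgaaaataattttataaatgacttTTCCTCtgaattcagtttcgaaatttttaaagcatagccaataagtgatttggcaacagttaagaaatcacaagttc
These letters stood in 1 of the 2 windows of Tlr1, in that of Tlr8 and in that of Tlr9, and in 23.3% of the 32851 windows searched. GAAANNGAA, a core of interferon response elements, stood in that of Tlr8 and in 1 of the 2 windows of Tlr6, against 7.13% of the windows searched. The NF-kappaB consensus stood in the windows of Tlr2 and Tlr3, against 3.90%. A match describes the letters in these windows only, and binding of any factor to them was not tested. Spi1 itself had 0 reads in the supportive library and 46 reads in the non-supportive library.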

How the data were processed

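RNA of 1 culture of supportive (neonatal) and 1 of non-supportive (adult) ISEMFs was made into TruSeq RNA libraries, a kit that does not mark strand. Per the submitters' processing notes, TopHat2 2.0.4 and HTSeq 0.5.4p3 were used with the mm9 build. The authors aligned single-end reads of 50 bases, kept unique hits and counted reads that fell in a single gene. The deposited counts are whole reads per gene without normalization, with totals on genes of 50674472 for supportive and 49615497 for non-supportive ISEMFs. The deposited RPKM values are those counts divided by exon length and by library sizes that come to 71463423 and 69449374 reads. The authors' log2 ratio and DESeq p-value columns were not used.

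Ratios of reads per library size were given exact 95% Clopper-Pearson intervals, and RPKM exact Poisson intervals, over genes with at least 10 reads. A count of 0 was bounded at 3 reads. PCR duplicates carry no molecular identifiers, so intervals cover counting error only. With 1 library per population, no test of edgeR or DESeq2 was run, and the tools gave only TMM and size factors. The pseudocount was 0.1. The genes named are the 10 members, Tlr11 to Tlr13, markers of cell types, and those genes of the pathway lists that reached 1 RPKM in a library. Ly86, Lbp, Irf7 and Ticam2 fall outside that rule and were named after their values were seen. The members and lists were chosen with earlier results of these data known. All 122 list genes were in the table, 2 of them under an older symbol. Alternatives were scaling by gene reads, TMM or size factors, a 4-fold threshold, minimums of 1 and 50 reads, a 99% interval, a rule on RPKM and pseudocounts of 1 and 0.001. Positions and exons were taken from GENCODE vM1. The interval rule was tested on simulated counts without replicate variation, with changes set only in better covered genes. The sequence, promoter and list steps were not part of that test. Intervals were computed in Python 3.11.15 with scipy 1.17.1, tables were handled with pandas 2.3.3 and numpy 2.4.6, figures were drawn with matplotlib 3.10.9, and factors were taken from edgeR 4.0.16 and DESeq2 1.42.0 under R 4.3.3.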

Additional observations from a re-analysis of the deposited data

How the results depend on the processing

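No paired analysis was possible because each population had 1 library, and no library could be left out. Scaling by gene reads, TMM or size factors shifted every log2 ratio of reads by 0.01, 0.06 and 0.04. The members' log2 ratios of RPKM + 0.1 shifted by no more than that. The counts of 1 member gene higher and 3 lower were the same under each scaling and under a 4-fold threshold. They were also the same under minimums of 1 and 50 reads and with a 99% interval. On the rule that asks for an RPKM of 1, none (0) of the member genes was lower, because Tlr7, Tlr8 and Cd14 do not reach that level in either library. Of the 64 genes around the receptors, 5 were higher and 17 lower. At 4-fold these counts were 1 and 10, with a minimum of 50 reads 11 were lower, and on the RPKM rule 11 were lower. With the exon lengths of GENCODE vM1, an alternative chosen after seeing the data, the log2 level of Tlr8 over Tlr7 in the non-supportive library went from 0.69 to -0.62 and that of Tlr7 over Tlr6 from 0.14 to 1.63. Pseudocounts of 1 and 0.001 moved the log2 ratio of Tlr8 from -1.83 to -0.33 and -8.01, and that of Tlr1 from 2.25 to 0.84 and 2.88. Depth limits Tlr1, Tlr5, Tlr6, Tlr7, Tlr8, Tlr9 and Cd14, each with under 50 reads in at least 1 library.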
